A study of Mus musculus with 2 samples.

Results

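The genes described here build and regulate the actin cytoskeleton and its contractile apparatus: actins, myosin chains, tropomyosins, calponins, LIM proteins, actin crosslinkers and their regulators. A list of 49 gene symbols defined them, and every probe set annotated to one of these symbols alone was used. Of the 49 genes, 48 had such a probe set, among 12394 genes on the array, and 40 of those were measured, which required a signal above the floor on each of the 2 arrays. The floor was the 40th percentile of an array, at a linear signal of 81.1 in the hPHD4 clone against 67.8 in the control clone.

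The samples were 2 Affymetrix arrays of LM8, a mouse osteosarcoma cell line, both from cells grown in culture. The array labelled LM8 hPHD4 clone came from a stably transfected clone carrying full-length human PHD4 cDNA in pcDNA3.1, and the array labelled LM8 control clone from a clone with the empty pcDNA3.1 vector. Both were selected with G418 at 0.5 mg/ml. PHD4 is a prolyl hydroxylase of the endoplasmic reticulum membrane, related to the oxygen-sensing enzymes of the HIF pathway. With 1 clone and 1 array in each group there was no test and no replicate check, and an effect of the transgene cannot be told apart from a difference between 2 clones. The only measure of error was how far the log2 ratios of probe sets for 1 gene lay apart. It describes single probe sets, not means over several. Measured genes were divided into 3 equal groups by mean signal, and this SD was 0.40 for the dimmest group, 0.37 for the middle and 0.28 for the brightest. Log2 ratios are the hPHD4 clone over the control clone throughout.

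Of 7 osteoblast markers on the array, 6 lay above the floor in each clone: Sp7, Alpl, Ibsp, Col1a1, Col1a2 and Dlx5. Of 9 smooth muscle markers that are not among the 49 genes, 3 were measured, at log2 ratios of −0.37 for Smtn, 0.15 for Npnt and 0.42 for Des, a median of 0.15. A further 3 exceeded the floor only in the hPHD4 clone and were higher there by at least 1.20-fold for Synpo2, 1.37-fold for Kcnmb1 and 1.46-fold for Rgs5. Their summed linear signal, from the brightest probe set of each of the 9, was 4612 in the hPHD4 clone against 3926 in the control clone, and none of their probe sets was listed at 0. Of 23 striated muscle markers, 3 were measured. Actin probe sets along the transcript serve as a sign of RNA quality: the 3′ signal of Actb exceeded its 5′ signal 1.86-fold in the hPHD4 clone but 1.58-fold in the control clone, and for Gapdh the same quotients were 0.978 and 0.911. The part of RNA quality in the differences below was not tested.

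Actin polymerises into filaments that myosin II motors pull on, and phosphorylation of the regulatory light chain by myosin light chain kinase, or through RhoA and its kinase ROCK, switches the motor on. Smooth muscle cells and myofibroblasts carry their own isoforms of actin, calponin and myosin, while the cytoplasmic isoforms are present in nearly all cells. Many of these genes are transcribed by serum response factor, encoded by Srf, which binds the CArG box together with the actin-sensing cofactors of the MRTF family.

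Because of that shared regulator, the CArG box was sought in RefSeq promoters, 250 bases before to 50 after each gene's start in assembly GRCm38.p6. The table held promoters of 44 of the 49 genes; Actb, Actg2, Csrp2, Myh11 and Tagln were not matched. The CArG box, searched in its strict form, which reads the same way on both strands, was found in 10 of the 56 promoters of these genes (17.9%) and in 535 of all 32851 promoters (1.63%). It lay near the start of 9 genes, Actc1, Actg1, Cnn2, Fhl1, Fhl2, Myl6, Myl9, Srf and Vcl. The second motif searched was the MCAT element, CATTCC or GGAATG on the opposite strand, which TEAD factors bind. It was found in 13 of the 56 promoters (23.2%) and in 14.7% of all promoters, and no match overlapped a CArG box. The windows below show the matches of the genes that differed most between the clones and of genes that differed little, with the motif in capitals. Of 2 matches in the Srf promoter, the one farther from the start is in capitals.
Myl9, CArG box 161 to 152 bases before the start, chr2:156775283-156775332, plus strand: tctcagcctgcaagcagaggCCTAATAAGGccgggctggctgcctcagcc
Fhl1, CArG box 102 to 93 bases before the start, chrX:56779561-56779610, plus strand: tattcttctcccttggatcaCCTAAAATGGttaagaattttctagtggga
Cnn2, CArG box 56 to 47 bases before the start, chr10:79988524-79988573, plus strand: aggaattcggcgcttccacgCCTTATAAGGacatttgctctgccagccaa
Myl6, CArG box 50 to 41 bases before the start, chr10:128493030-128493079, minus strand: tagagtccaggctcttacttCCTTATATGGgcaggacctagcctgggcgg
Actg1, CArG box 90 to 81 bases before the start, chr11:120348556-120348605, minus strand: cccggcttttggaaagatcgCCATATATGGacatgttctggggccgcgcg
Vcl, CArG box 227 to 218 bases before the start, chr14:20929151-20929200, plus strand: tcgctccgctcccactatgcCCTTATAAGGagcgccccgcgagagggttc
Srf, CArG box 82 to 73 bases before the start, chr17:46556215-46556264, minus strand: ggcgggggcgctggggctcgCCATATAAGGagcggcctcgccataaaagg
Mylk, MCAT element 158 to 153 bases before the start, chr16:34784772-34784817, plus strand: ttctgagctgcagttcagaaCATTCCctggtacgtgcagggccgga
Acta2, MCAT element 146 to 141 bases before the start, chr19:34255494-34255539, minus strand: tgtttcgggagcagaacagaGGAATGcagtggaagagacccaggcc

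Most genes of the list differed by less than 1.5-fold between the clones. Acta2, Mylk and Myl9 were 2.82-fold, 3.76-fold and 2.57-fold lower, and Actg2 and Cnn1 were detected above the floor in the control clone alone. The separate smooth muscle markers given above lay on both sides of 0. Those higher in the hPHD4 clone were near the floor or, for Npnt, differed little. The LIM-domain gene Fhl1 was 5.16-fold higher in the hPHD4 clone. Of the 40 measured genes, 5 were lower by at least 1.5-fold (12.5%), against 5.22% of all 7453 measured genes, and 3 were higher by at least 1.5-fold (7.5%), against 8.94%. After quantile normalization the same counts were 5 and 4, with 6.43% of all measured genes lower and 6.67% higher. At a 2-fold threshold 3 were lower, with 0.979% of all measured genes, and 1 was higher, with 1.89%. The remaining 32 lay within 1.5-fold. Without probe sets of the less specific _x_at and _s_at classes, 2 of 38 measured genes were lower by at least 1.5-fold. Of all genes measured in that setting, 5.47% were lower. The median log2 ratio was −0.10 over the 40 genes and 0.03 over all measured genes, and 23 of the 40 were below 0 (57.5%), against 46.4% of all measured genes. Ratios of all genes varied with brightness, so the medians were also set side by side within the brightest group, at −0.12 for 27 of the listed genes and −0.03 for all 2485 genes.

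**Figure D1:**
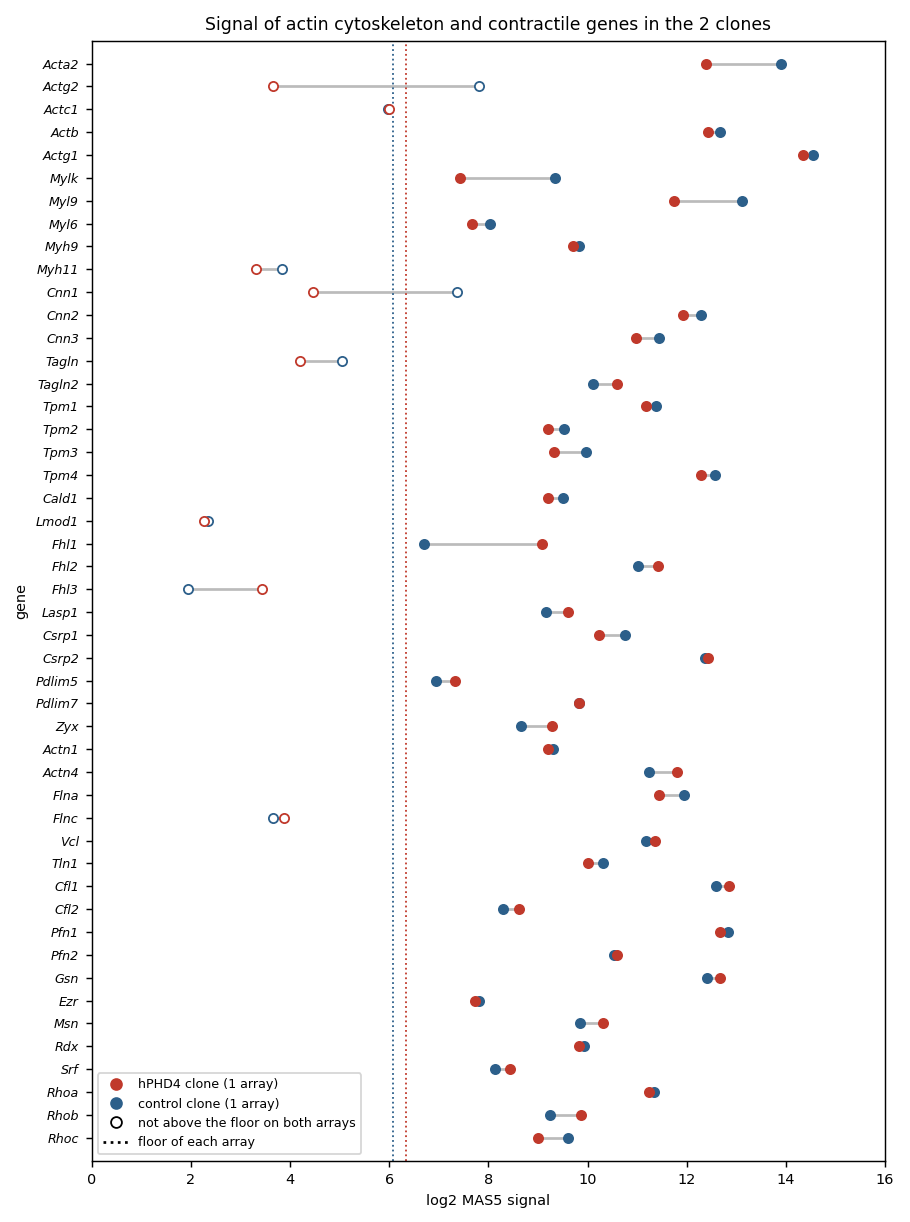
Log2 MAS5 signal (horizontal axis) of the 48 genes with a probe set of their own (vertical axis), as red points for the hPHD4 clone and blue points for the control clone, 1 array each. Filled points are means over measured probe sets, open points the brightest probe set of a gene not above the floor on both arrays, and dotted lines the floors. The long gaps belong to Acta2, Actg2, Mylk, Myl9, Cnn1 and Fhl1, and to Fhl3, whose points both lie under the floors.

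Among the actins, the smooth muscle isoforms differed between the clones by more than the cytoplasmic ones. Acta2 encodes smooth muscle alpha-actin, the usual marker of myofibroblasts. Its measured probe set had a linear signal of 5385 in the hPHD4 clone against 15193 in the control clone, a log2 ratio of −1.50, against an SD of 0.28 between probe sets at that brightness. The second probe set of Acta2 was under the floor on both arrays, at 4.60 against 25.9. Actg2, encoding smooth muscle gamma-actin, had signals of 12.7 in the hPHD4 clone, under the floor, and 225.7 in the control clone. The gene was therefore lower in the hPHD4 clone by at least 2.78-fold, taking the floor of that array in place of the dim signal. The bound depends on the floor: a 20th-percentile floor gave 9.17-fold, and a 60th-percentile floor gave no bound. Actc1, the cardiac actin gene, was under the floor on both arrays, at 64.1 and 63.4.

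The cytoplasmic actin genes, whose filaments form the cortex and stress fibres of non-muscle cells, lay slightly below 0, with a median log2 ratio of −0.22 that was −0.10 after quantile normalization. Actg1 had linear signals of 20911 and 23866 in the hPHD4 and control clones, a log2 ratio of −0.19. Actb had a log2 ratio of −0.25 over 5 probe sets, from −0.45 to 0.17, with an SD of 0.25. Neither ratio exceeded the SD of 0.28 for single probe sets of this brightness. The Actb value is a mean over 5 probe sets, of which 4 were below 0. The log2 ratio of Acta2 was 1.25 below that of Actb and 1.31 below that of Actg1, differences that a constant scaling of an array leaves as they are. The measured probe set of Acta2 belongs to the _s_at class, whose probes match more than 1 transcript, and actin genes are closely similar in sequence, so the share of other actins in its signal is uncertain.

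Among the myosin genes, Myl9 and Mylk were lower in the hPHD4 clone. Myl9 encodes the regulatory light chain of smooth muscle and non-muscle myosin II, whose phosphorylation drives contraction. Its linear signals were 3448 in the hPHD4 clone against 8862 in the control clone on its only probe set, a log2 ratio of −1.36 against an SD of 0.28. Mylk encodes the kinase that phosphorylates this light chain. Its measured probe sets had signals of 174.8 against 457.8 and of 169.8 against 914.4, with log2 ratios of −1.39 and −2.43. Both were lower in the hPHD4 clone, but they disagreed about the size, with an SD of 0.74 around the mean of −1.91 where 0.37 was usual. A further probe set of Mylk, above the floor in the control clone alone, also lay lower in the hPHD4 clone, at 37.4 against 70.0. Among all measured genes Mylk was the 10th, Acta2 the 26th and Myl9 the 31st from the lowest ratio.

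The other myosin genes of the list lay within 1.5-fold. So did Myl12a and Myl12b, regulatory light chains outside the list, at −0.10 and 0.11. Myl6, the essential light chain, had signals of 204 in the hPHD4 clone against 261 in the control clone, a log2 ratio of −0.35 against an SD of 0.40; 2 probe sets annotated to Myl6 and to another gene were not used. Myh9, the heavy chain of non-muscle myosin IIA, had a mean log2 ratio of −0.12. Its 4 probe sets ran from −0.64 to 0.42, so that no direction could be read. Myh11, the smooth muscle heavy chain, was under the floor on both arrays with both of its probe sets, and Myh10 had no probe set of its own.

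Among calponins and transgelins, which bind along actin filaments, Cnn1 was the only smooth muscle isoform above the floor in either clone. Cnn1, the smooth muscle calponin, had a linear signal of 22.0 in the hPHD4 clone against 165.1 in the control clone, above the floor in the control clone alone. The difference was at least 2.04-fold, and at least 6.71-fold under a 20th-percentile floor; under a 60th-percentile floor Cnn1 was not detected in either clone. The calponins of non-muscle cells differed less. Cnn2 had signals of 3897 and 4976 in the hPHD4 and control clones, a log2 ratio of −0.35. Cnn3 had a log2 ratio of −0.47, and all 6 of its probe sets were below 0, from −1.13 to −0.05. Tagln, the smooth muscle transgelin known as SM22, was under the floor on both arrays, at 18.4 and 33.2. Tagln2, its broadly expressed relative, lay the other way at 0.48, with both probe sets above 0, at 0.34 and 0.61.

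**Figure D2:**
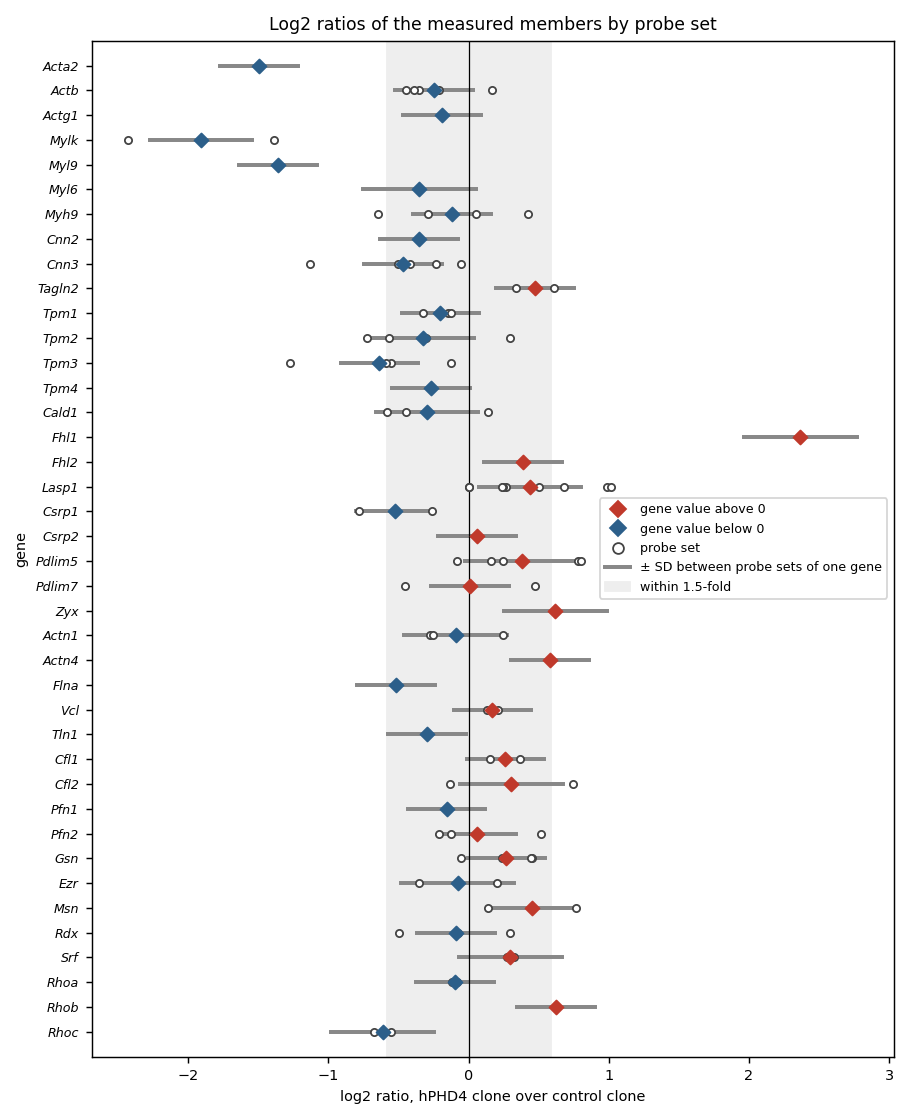
Log2 ratio of the hPHD4 clone over the control clone (horizontal axis) for the 40 measured genes (vertical axis). Diamonds are gene values, open circles single probe sets and grey bars the SD between probe sets of 1 gene at that brightness; Mylk, Acta2 and Myl9 lie to the left of the shaded 1.5-fold band and Fhl1 to the right, at 2.37.

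Tropomyosins, which wind along the filament and control the access of myosin, were all below 0, most of them slightly. Tpm3 had the lowest ratio, −0.64 over 4 measured probe sets, at −1.27, −0.59, −0.55 and −0.13. Its SD of 0.47 was above the usual 0.28, and the ratio was −0.28 under a 20th-percentile floor, where another probe set at 1.15 entered. The probe set at −1.27 is of the _x_at class, and without it Tpm3 was within 1.5-fold, at −0.42. The gene was also within 1.5-fold by the median of its probe sets (−0.57), by the brightest one (−0.55) and with dim probe sets kept at a common floor (−0.51). Tpm1 was at −0.20 with all 3 probe sets below 0, and Tpm4 at −0.27 on 1 probe set. Tpm2 was at −0.33, with its 4 probe sets between −0.72 and 0.29. Cald1, encoding caldesmon, which restrains the actin-myosin interaction, had a log2 ratio of −0.30 with probe sets from −0.58 to 0.14. All 5 measured genes of this role were thus below 0, beside 46.4% of all measured genes, and 1 of them was past 1.5-fold. Lmod1, encoding a filament nucleator of smooth muscle, was under the floor in both clones.

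Genes of LIM-domain proteins, which sit on stress fibres and adhesions and in part shuttle to the nucleus, lay mostly above 0. This held for 7 of 8 measured genes, or 6 when the median of all ratios was subtracted, beside 3994 of all 7453 measured genes. The 7 include Pdlim7 at 0.01, Csrp2 at 0.06 and Zyx, whose probe sets lay on opposite sides of 0. Fhl1 encodes a protein of LIM domains alone, best known from striated muscle, where its mutations cause myopathies in humans. Its linear signals were 538.9 in the hPHD4 clone against 104.5 in the control clone on its only probe set, a log2 ratio of 2.37 against an SD of 0.40. The control signal was near the floor of 67.8, and a 60th-percentile floor left Fhl1 unmeasured. It was the 7th highest of all measured genes. Fhl2, of the same family, differed less, with signals of 2727 in the hPHD4 clone against 2083 in the control clone, a log2 ratio of 0.39. The log2 ratio of Fhl1 was 1.98 above that of Fhl2, and Fhl3 was under the floor on both arrays.

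Zyx encodes zyxin, which gathers at strained stress fibres and repairs them. Its measured probe set had signals of 620.6 in the hPHD4 clone against 404.2 in the control clone, a log2 ratio of 0.62 against an SD of 0.37. Its second probe set, under the floor in the hPHD4 clone, lay the opposite way, at 52.0 and 149.3, and a 20th-percentile floor, which takes in both, put the gene at −0.45. The direction for Zyx thus differs between its probe sets. Lasp1, which localises to actin-rich cell edges, was at 0.44, and its 9 probe sets ran from 0.00 to 1.01. Most of them are of the _x_at class. Those outside it were at 0.00 and 0.24, which put the gene at 0.12, whereas its brightest probe set was at 0.99. Pdlim5, a PDZ and LIM protein of the Z-disc and stress fibres, was at 0.38 with 5 measured probe sets from −0.08 to 0.80.

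The remaining LIM genes lay below or near 0. Csrp1, of the cysteine-rich proteins that bind alpha-actinin, was below 0 at −0.52, with both probe sets below 0, at −0.78 and −0.26. Its relative Csrp2 was at 0.06, with linear signals of 5536 and 5320 in the hPHD4 and control clones. Pdlim7 was at 0.01, the mean of probe sets at −0.45 and 0.47. Of the LIM genes, Fhl1 and Zyx were past 1.5-fold and none was lower by as much; Csrp1 passed that threshold when its chromosome median was subtracted.

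Crosslinkers and proteins that join actin to adhesions lay on both sides of 0 and within 1.5-fold, except Actn4 and Tln1 under the settings named here. Actn4 encodes an alpha-actinin of non-muscle cells that bundles filaments at the cell edge. Its linear signals were 3597 in the hPHD4 clone against 2407 in the control clone, a log2 ratio of 0.58, just inside 1.5-fold and above the SD of 0.28; it was past 1.5-fold at 0.59 after quantile normalization and 0.61 after loess correction. The paralogue Actn1 was at −0.09, with 3 probe sets between −0.28 and 0.25. Flna, encoding filamin A, which joins crossing filaments into networks, had signals of 2769 and 3958 in the hPHD4 and control clones, a log2 ratio of −0.52. Flnc, the muscle filamin, was under the floor on both arrays. Vinculin (Vcl), which strengthens the link from integrins to actin, was at 0.17, the mean of probe sets at 0.13 and 0.21. Talin (Tln1), which binds integrin tails, was at −0.30 on its 1 measured probe set, and at −0.64 under a 20th-percentile floor, where its second one entered.

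Genes of filament turnover were close to 0. The cofilin genes, whose products sever filaments, were at 0.26 for Cfl1 and 0.30 for Cfl2. The probe sets of Cfl2 disagreed, at −0.14 and 0.74. The profilin genes, whose products feed monomers to growing ends, were at −0.16 for Pfn1 and 0.06 for Pfn2, the latter with probe sets from −0.21 to 0.51. Gsn encodes gelsolin, which cuts and caps filaments in response to calcium. It was at 0.27 over 4 measured probe sets, from −0.05 to 0.45, and another one exceeded the floor only in the hPHD4 clone, at 219.2 against 49.7. None of these 5 genes was past 1.5-fold, but a 20th-percentile floor put Gsn at 0.64.

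Ezrin, radixin and moesin tie the actin cortex to the plasma membrane. Moesin (Msn) was at 0.45 with probe sets at 0.14 and 0.77, ezrin (Ezr) at −0.08 and radixin (Rdx) at −0.09. The probe sets of Ezr, at −0.36 and 0.20, and of Rdx, from −0.50 to 0.30, lay on both sides of 0.

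The regulators of stress fibre assembly and contraction differed among themselves. Rhoa, the main activator of ROCK, was nearly equal in the clones, with linear signals of 2409 and 2578 in the hPHD4 and control clones and probe sets at −0.12 and −0.08. Rhob, an immediate early gene whose product sits on endosomes, had signals of 935.9 in the hPHD4 clone against 608.3 in the control clone, a log2 ratio of 0.62 against an SD of 0.28, or 0.56 and within 1.5-fold once its chromosome median was subtracted. Rhoc, linked to invasion and metastasis in tumour cells, was lower, at 513.3 and 784.4, a log2 ratio of −0.61 against an SD of 0.37. Both of its probe sets were below 0, at −0.67 and −0.55, and without the first, of the _s_at class, it was within 1.5-fold. Rhob and Rhoc thus lay on opposite sides of Rhoa, 1.23 apart on the log2 scale. Srf itself was at 0.30, the mean of probe sets at 0.27 and 0.32, each within the SD of 0.37 for single probe sets.

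**Figure D3:**
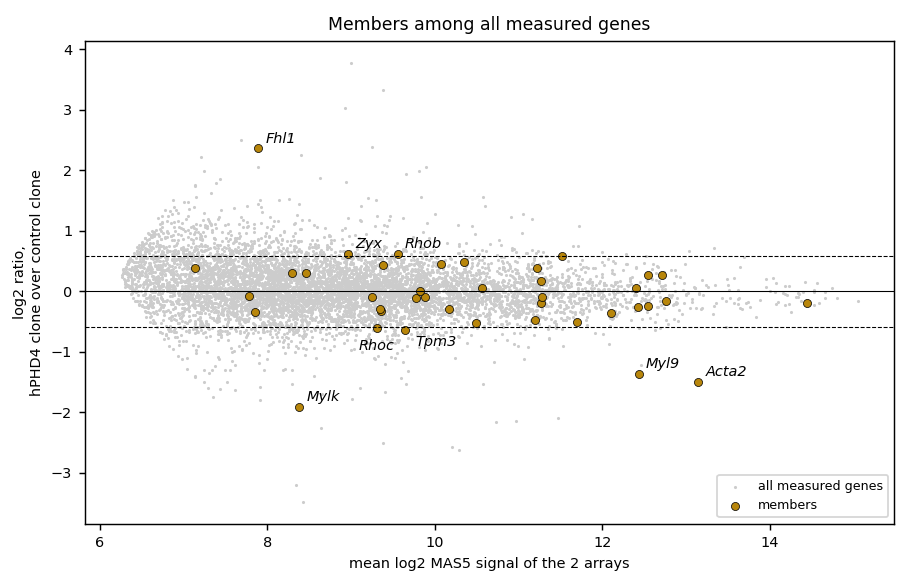
Log2 ratio of the hPHD4 clone over the control clone (vertical axis) against the mean log2 MAS5 signal of the 2 arrays (horizontal axis) for all 7453 measured genes in grey and the 40 measured cytoskeletal genes in gold. Dashed lines mark 1.5-fold; the 8 named genes lie beyond them, Acta2 and Myl9 among the bright genes where few others do.

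The genes that hold a CArG box near their start lay on both sides of 0. Among the 8 of them that were measured, Fhl1 was at 2.37 and Myl9 at −1.36, and the other 6 lay between −0.35 and 0.39. Their median log2 ratio was −0.01, against −0.10 for the 30 measured genes of the list with a promoter and no match. Over all 97 measured genes with a CArG box in this window, the median was 0.05, and past 1.5-fold there were 11 higher and 6 lower genes. The 9 measured genes of the list with an MCAT element had a median of −0.20, with Acta2 and Mylk lower and 0 genes higher past 1.5-fold, against a median of −0.09 for the 29 without. The median over all 865 measured genes with this element was 0.04, and past 1.5-fold there were 80 higher and 53 lower genes. The counts for both motifs stand beside 8.94% higher and 5.22% lower over all 7453 measured genes. A match describes the letters of the window and does not show binding. The strict search passes over CArG boxes with a changed base. A gene without a match, such as Acta2, may therefore still hold such a box.

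Of the genes with at least 2 measured probe sets, 25 in all, 7 had every probe set below 0, 6 every one above and 12 had probe sets on both sides. A further 15 genes rested on 1 measured probe set, among them Acta2, Myl9, Fhl1, Zyx and Rhob. The values nearest the 1.5-fold threshold were Rhoc and Zyx just outside, at −0.61 and 0.62, and Actn4 and Csrp1 just inside, at 0.58 and −0.52. The 40 genes lay on 19 chromosomes. The median of all measured genes differed between these, from −0.19 on chromosome 5 to 0.31 on chromosome 19. Acta2 lies on chromosome 19, opposite in sign to that median, and Myl9 on chromosome 2, where the median was 0.11.

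Related genes outside the list were mostly near 0 or higher in the hPHD4 clone. Over 9 lists of actin nucleators, turnover factors, adhesion proteins, SRF targets, crosslinkers, other myosins, other LIM proteins and muscle markers, 84 of 142 genes were measured. Past 1.5-fold there were 14 higher and 2 lower genes, or 9 and 2 after quantile normalization or loess correction. Over all measured genes these shares were 8.94% higher and 5.22% lower, and 6.67% and 6.43% after quantile normalization. The median log2 ratio was 0.10, beside 0.03 for all measured genes. The 10 other myosin genes, among them the unconventional myosins, held 0 past 1.5-fold in either direction.

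Other LIM and PDZ-LIM proteins had 3 of 7 measured genes past 1.5-fold, all higher, or 2 after quantile normalization or loess correction. Over all measured genes 8.94% were higher. Crip2, a small cysteine-rich LIM protein, had linear signals of 920.0 in the hPHD4 clone against 263.3 in the control clone, a log2 ratio of 1.81. Pdlim1, which binds alpha-actinin on stress fibres, was at 1.27, with signals of 1600 and 662.9, and Pdlim4 at 0.76. Ldb3, a Z-disc PDZ-LIM protein of striated muscle, exceeded the floor only in the control clone, and was lower in the hPHD4 clone by at least 1.69-fold.

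In the list of SRF and MRTF targets and cofactors, 4 of 9 measured genes were past 1.5-fold, all higher, or 3 after quantile normalization. Over all measured genes 8.94% were higher, or 6.67% after quantile normalization. They were Ccn2, encoding connective tissue growth factor, at 1.10, and the immediate early genes Egr1 at 0.87, Junb at 0.82 and Fos at 0.59. The control signals of Egr1 (121.8), Fos (127.1) and Junb (131.9) were not far above the floor. These genes belonged to the dimmest group, in which 403 of all 2484 genes were higher past 1.5-fold and the median log2 ratio was 0.13. Ankrd1 of the same list lay the other way. It exceeded the floor only in the control clone, and was lower in the hPHD4 clone by at least 2.64-fold. Myocd, the SRF cofactor of muscle cells, was under the floor on both arrays.

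Crosslinkers and membrane linkers outside the list had 4 of 15 measured genes past 1.5-fold, 3 higher and 1 lower, or 2 and 1 after quantile normalization. The shares over all measured genes were 8.94% higher and 5.22% lower. Marcksl1, which binds actin and the membrane, was at 1.38, the scaffold gene Iqgap1 at 0.84 with 3 probe sets from 0.37 to 1.34, and the ezrin-binding scaffold gene Slc9a3r1 at 0.62. Pls3, encoding the bundling protein plastin 3, was at −0.68. In the nucleator list 2 of 12 genes were past 1.5-fold, both higher, or 1 when the median of all ratios was subtracted: Wasl, encoding the Arp2/3 activator N-WASP, at 0.83, although its probe sets at 0.24 and 1.42 disagreed, and Arpc5l, of the Arp2/3 complex, at 0.60. Limk2, a kinase that inactivates cofilin, was at 0.59 and the only one of 14 turnover genes past 1.5-fold; with median subtraction, quantile normalization, loess correction or chromosome medians subtracted, 0 were. In the focal adhesion list 11 of 14 genes were above 0, with a median of 0.23, or 9 with a median of 0.05 once chromosome medians were subtracted. Of all 7453 measured genes 3994 were above 0. Lpp, a relative of zyxin, was at −0.61 and the only one past 1.5-fold. Myl3, encoding a myosin light chain of striated muscle, was at 0.71 with a control signal of 85.1, near the floor. Myh7, a striated muscle heavy chain, exceeded the floor only in the hPHD4 clone and was higher there by at least 1.85-fold.

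**Figure D4:**
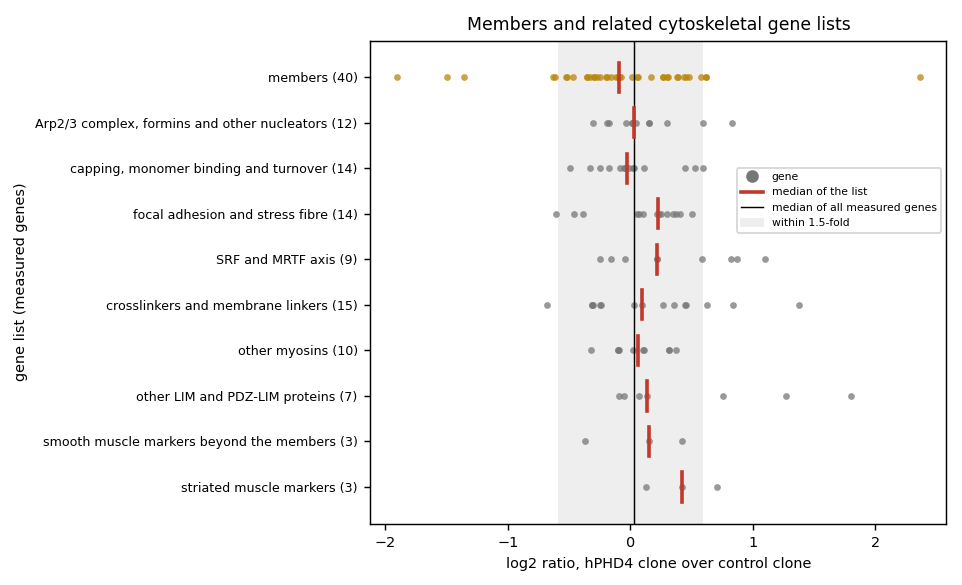
Log2 ratio of the hPHD4 clone over the control clone (horizontal axis) for the 40 measured cytoskeletal genes and 9 related gene lists (vertical axis, number of measured genes in brackets). Points are genes, red bars list medians, the black line the median of all measured genes at 0.03 and the shaded band 1.5-fold; the lowest values, Mylk, Acta2 and Myl9, are in the top row.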

How the data were processed

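Each array was deposited as 1 log2 signal for every probe set. Per the submitters' processing notes the authors used MAS5, its version and detection calls not given in the sources used here. Both the log base and a scaling of each array by the authors were read from the values: the trimmed mean of the linear signals was 500.2 on both arrays. No further scaling was applied. The platform annotation gave 1 symbol to 20393 of 22690 probe sets, 20364 of them matched by gene number to RefSeq genes of GRCm38.p6. Affymetrix control probe sets with 1 symbol were kept, those of Actb included.

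A probe set was measured when above the 40th percentile of the non-control probe sets on both arrays. A gene's value was the mean log2 ratio of its measured probe sets. A gene whose probe sets were all under the floor on 1 array alone received a bound, the bright signal divided by the floor of the dim array. The SD between probe sets was pooled over 2802 genes with 7017 measured probe sets, in 3 groups by mean signal; it leaves out differences between cultures, clones, labelling and arrays, whose small number limits the precision.

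The genes, the related lists and the 1.5-fold threshold were chosen with earlier results of these data known. Genes given in full were those past 1.5-fold, the bounds, the 5 brightest, those whose probe sets disagreed in sign by over 1.5-fold and, where a family held genes both inside and outside 1.5-fold, the whole family; of each related list, at most 4 past 1.5-fold were named. One related list is not reported here. Ankrd1, Kcnmb1, Ldb3, Myh7, Myl12a, Myl12b, Myocd, Rgs5 and Synpo2 were named after their values were seen. Steps were tested on simulated data. Python 3.11.15, pandas 2.3.3, scipy 1.17.1 and statsmodels 0.14.6 were used.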

Additional observations from a re-analysis of the deposited data

How the results depend on the processing

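The count of measured genes, between 37 and 48, kept within 1.5 times of the main one under every alternative. When probe sets of the _x_at and _s_at classes were left out, 2 of 38 measured genes, Myl9 and Mylk, were at least 1.5-fold lower. Over all 7182 genes measured in that setting the share was 5.47%. Acta2 was then unmeasured, and Rhoc and Tpm3 lay within 1.5-fold, at −0.55 and −0.42. With all probe sets, the counts were 3 lower and 1 higher at a 2-fold threshold and 1 and 1 at a 3-fold threshold. The median was −0.20 with the brightest probe set per gene. Zyx was at −0.45 under a 20th-percentile floor and −0.13 with dim probe sets kept at a common floor, since its second probe set then enters. Acta2 was at −0.75 with dim probe sets kept and −1.80 after subtraction of chromosome medians, Mylk between −2.43 and −1.27 over all alternatives that measured it. Leaving out control probe sets and subtracting chromosome medians were chosen after seeing the data. Of the 99 values of single genes under the alternatives, 90 moved by less than the spread between probe sets. No paired analysis was possible because each group has 1 array; for the same reason no replicate could be left out.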
